A study of Arabidopsis thaliana with 9 samples.

Results

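The genes described here are 7 genes of tocopherol synthesis in Arabidopsis thaliana, chosen by their locus identifiers from a table of 33602 loci: TAT, HPPD and the vitamin E deficient genes VTE1, VTE2, VTE3, VTE4 and VTE5. All 7 were in the table, and all 7 were among the 16384 loci that were tested, those whose abundance averaged 1 or more. The samples were poly(A) RNA of young Col-0 rosette leaves, taken at an age of 8 weeks from plants of short days that had been in light of 125 µE m-2 s-1 for 2 h. There were 3 samples of each of 3 genotypes, and each sample pooled leaves from 3 plants. The first genotype was 2cpab, a double mutant of the chloroplast 2-Cys peroxiredoxins A and B. The second was ntrc-2cpab, a triple mutant that also lacks NTRC, the chloroplast thioredoxin reductase that reduces these peroxiredoxins. The wild type was the reference for both mutants. The labels name no independent line of either mutant, so the named mutations and any other change that a mutant line carries cannot be told apart. The design text calls the samples biological replicates.

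Tocopherols are the vitamin E compounds of plants, lipid-soluble antioxidants that quench singlet oxygen and stop the peroxidation of fatty acids in plastid membranes. The pathway joins a head group made from tyrosine to a phytyl tail, much of which comes from the phytol of chlorophyll. TAT makes 4-hydroxyphenylpyruvate from tyrosine, and HPPD turns it into homogentisate, the head group. VTE5 phosphorylates phytol, VTE2 joins homogentisate and phytyl diphosphate, VTE3 methylates the product, VTE1 closes the ring that makes a tocopherol, and VTE4 adds the methyl group that makes alpha-tocopherol, the main form of leaves. VTE3 also serves the synthesis of plastoquinone, an electron carrier of the thylakoid.

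In the RefSeq annotation of the TAIR10.1 genome, whose build differs in name from the TAIR10 that the submitters used, VTE1 (AT4G32770) lies on chromosome 4 from 15804784 to 15808084 on the + strand. VTE3 (AT3G63410) lies on chromosome 3 from 23415589 to 23417119 on the - strand. The bases upstream of both genes are shown because these were the members that passed the test below, and those of VTE2 (AT2G18950, chromosome 2, + strand) because they hold a G-box. The windows run 5′ to 3′ on the gene's strand, cover up to 250 bases before the annotated start and stop at the nearest other gene. Capitals mark the matches to the motifs named below the sequences.
VTE1, chr4:15804631-15804783: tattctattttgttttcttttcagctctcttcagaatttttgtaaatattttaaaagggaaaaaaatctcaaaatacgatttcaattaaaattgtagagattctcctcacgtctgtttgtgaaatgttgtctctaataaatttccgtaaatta
VTE3, chr3:23417120-23417248: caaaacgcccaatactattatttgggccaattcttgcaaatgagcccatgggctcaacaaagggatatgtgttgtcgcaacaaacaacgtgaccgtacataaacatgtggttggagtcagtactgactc
VTE2, chr2:8206949-8207198: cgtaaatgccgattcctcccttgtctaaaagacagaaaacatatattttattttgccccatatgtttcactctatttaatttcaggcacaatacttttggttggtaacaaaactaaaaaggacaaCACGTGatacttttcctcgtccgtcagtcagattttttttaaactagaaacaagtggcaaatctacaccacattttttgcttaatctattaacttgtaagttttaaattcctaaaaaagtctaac
The motifs searched on both strands were the G-box CACGTG, the I-box GATAAG, the W-box core TTGAC and the heat shock element GAANNTTC. In windows of 250 bases, VTE2 held 1 G-box, a motif found in 6.49% of 27437 windows of protein-coding genes. VTE4 held 1 I-box, found in 12.3% of these windows. TAT held 2 W-box cores, and 44.9% of the windows held at least 1. The heat shock element was found in 9.55%. Matches are given for the members other than HPPD, and they are no count over the 7 genes. The W-box matches of VTE1 lie inside a neighbouring tRNA gene and outside the bases shown. None of these letters stood in the printed bases of VTE1 or VTE3.

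The deposited table holds log2 values with an offset of 1, and abundances here are 2 to the power of the value minus 1. It holds no counts, so the depth is unknown, and the spread between replicates is the only measure of error. Summed abundance ran from 960937 to 1029627 per sample. As a check of the labels, 2CPA lay between 3.43 and 4.85 in the mutants and between 259 and 325 in the wild type, and NTRC lay between 14.7 and 18.3 in ntrc-2cpab, against 60.9 to 68.1 in 2cpab and 74.5 to 80.2 in the wild type. 2CPB averaged 9.77 in 2cpab and 9.65 in ntrc-2cpab, against 58.6 in the wild type, so its transcript was lower and still measured in the mutants. The 4 leaf markers were present in every sample, and the 12 root, flower and seed markers reached at most 0.203. Of the 5 leaf senescence markers SAG12 was listed at 0 in all 9 samples, and SAG13 was the only one abundant enough to be tested (means of 1.92 in 2cpab and 2.03 in ntrc-2cpab, against 1.58 in the wild type). SEN1 was lower in all ntrc-2cpab samples than in all wild-type samples, at a mean of 0.388 in ntrc-2cpab against 1.01 in the wild type, and was not tested. Wild-type samples differed in immune genes: PR5, a pathogenesis-related gene, stood at 10.7, 68.7 and 19.7 in wild type replicates 1, 2 and 3. It ran from 52.8 to 82.5 in 2cpab and from 50.0 to 90.2 in ntrc-2cpab, so wild type replicate 2 lay in the range of the mutants. PR1 ran from 0.259 to 24.4 in the wild type, from 8.67 to 26.5 in 2cpab and from 1.61 to 49.6 in ntrc-2cpab. PR2 ran from 4.79 to 49.0 in the wild type, from 27.4 to 60.4 in 2cpab and from 17.3 to 79.6 in ntrc-2cpab. For both genes ntrc-2cpab replicate 1 was the lowest of its group and lay in the wild-type range. Wild type replicate 1 was the lowest in PR5. In the tocopherol genes it lay between the other wild-type samples for VTE1, VTE4 and HPPD and was the lowest of the 3 for VTE2, VTE3, VTE5 and TAT. Results without it are given below where they change a call.

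The first question was whether leaves of the 2-Cys peroxiredoxin mutant, with or without the mutation of NTRC, differed from the wild type in these genes. VTE1 and VTE3 fell in ntrc-2cpab, VTE1 to 68.2% and VTE3 to 82.7% of the wild-type mean. No member passed the test in 2cpab, where VTE1 stood at 75.4% and VTE3 at 83.6%. VTE1, VTE3 and VTE4 stood lower in all 6 mutant samples than in all 3 wild-type samples, as 7.35% of the tested genes did. VTE5, for phytol kinase, was the only member of the 7 with a higher mean in ntrc-2cpab than in the wild type.

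**Figure D1:**
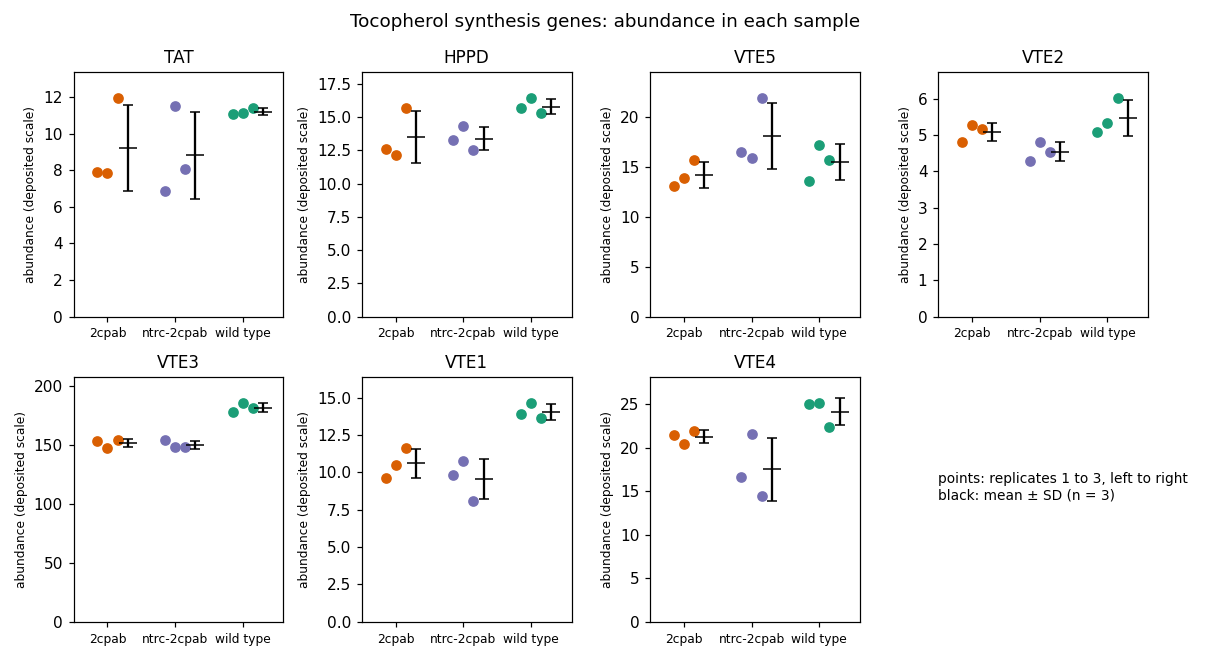
Abundance of the 7 tocopherol synthesis genes on the deposited scale (y axes, linear from 0) in 2cpab, ntrc-2cpab and wild type samples. Points are replicates 1 to 3 from left to right, and black marks are means with SD (n = 3). VTE3 stood between 148 and 155 in the mutants and between 178 and 185 in the wild type, while TAT ran from 6.90 to 11.96 in the mutants and from 11.1 to 11.4 in the wild type.

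Among the genes of the head group, TAT (AT5G53970), a tyrosine aminotransferase, stood at 7.92, 7.86 and 11.96 in 2cpab, at 6.90, 11.5 and 8.10 in ntrc-2cpab and at 11.1, 11.1 and 11.4 in the wild type. One sample of each mutant, 2cpab replicate 3 and ntrc-2cpab replicate 2, was above all wild-type samples, and the other 4 were below. TAT averaged 9.25 ± 2.35 in 2cpab and 8.83 ± 2.39 in ntrc-2cpab, against 11.2 ± 0.194 in the wild type (SD, n = 3 each). Its log2 fold change against the wild type was -0.28 ± 0.184 (SE) in 2cpab and -0.34 ± 0.184 in ntrc-2cpab, and neither passed (limma with Benjamini-Hochberg adjusted p = 0.474 and 0.287). HPPD (AT1G06570), 4-hydroxyphenylpyruvate dioxygenase, stood at 12.6, 12.1 and 15.7 in 2cpab, at 13.3, 14.3 and 12.5 in ntrc-2cpab and at 15.7, 16.4 and 15.3 in the wild type. Samples of ntrc-2cpab were all below the wild type, and 2cpab replicate 3 lay within its range. The log2 fold change of HPPD was -0.22 in 2cpab and -0.23 in ntrc-2cpab (95% intervals -0.44 to 0.0028 and -0.45 to -0.0022, limma adjusted p = 0.294 and 0.202).

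In the branch of the tail, VTE5 (AT5G04490) stood at 13.1, 13.9 and 15.7 in 2cpab, at 16.5, 15.9 and 21.9 in ntrc-2cpab and at 13.6, 17.2 and 15.7 in the wild type. Both mutants overlapped with the wild type, and ntrc-2cpab replicate 3 was the highest of the 9 samples. VTE5 had a log2 fold change of -0.12 in 2cpab and 0.20 in ntrc-2cpab (95% intervals -0.41 to 0.18 and -0.095 to 0.50, limma adjusted p = 0.695 and 0.38). VTE2, homogentisate phytyltransferase, joins the branches. It stood at 4.81, 5.28 and 5.15 in 2cpab, at 4.28, 4.81 and 4.54 in ntrc-2cpab and at 5.07, 5.32 and 6.02 in the wild type. All ntrc-2cpab samples were below all wild-type samples, and those of 2cpab overlapped with them. The log2 fold change of VTE2 was -0.088 in 2cpab and -0.22 in ntrc-2cpab (95% intervals -0.27 to 0.091 and -0.40 to -0.043, limma adjusted p = 0.608 and 0.133).

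VTE3, the methyltransferase shared with plastoquinone synthesis, stood at 153, 148 and 155 in 2cpab, at 154, 148 and 148 in ntrc-2cpab and at 178, 185 and 182 in the wild type. The mutants covered the same narrow range, and a gap separated them from the wild type. VTE3 averaged 152 ± 3.59 in 2cpab and 150 ± 3.44 in ntrc-2cpab, against 182 ± 3.84 in the wild type (SD, n = 3 each). Its fall passed the test in ntrc-2cpab (log2 fold change -0.27 ± 0.0637 SE, limma adjusted p = 0.049) and not in 2cpab, at nearly the same size (-0.26 ± 0.0637 SE, limma adjusted p = 0.104). The call in ntrc-2cpab held in 0 of the 9 fits that left out 1 sample, with limma adjusted p from 0.0751 to 0.119 and log2 fold changes from -0.29 to -0.26. It ended also with the abundances rescaled to an equal sum per sample (limma adjusted p = 0.0708). VTE3 overlaps by 71 bases with AT3G63400 on the opposite strand, and the files do not say how shared reads were counted. That neighbour was higher in the mutants, at 7.86 in 2cpab and 8.90 in ntrc-2cpab against 7.25 in the wild type, and did not pass (limma adjusted p = 0.546 and 0.0932).

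VTE1, tocopherol cyclase, stood at 9.65, 10.5 and 11.6 in 2cpab, at 9.84, 10.8 and 8.11 in ntrc-2cpab and at 13.9, 14.6 and 13.6 in the wild type. All mutant samples were below all wild-type samples, and the mutants overlapped with each other. VTE1 averaged 10.6 ± 0.993 in 2cpab and 9.57 ± 1.35 in ntrc-2cpab, against 14.0 ± 0.513 in the wild type (SD, n = 3 each). The log2 fold change was -0.52 ± 0.105 (SE) in ntrc-2cpab, which passed (limma adjusted p = 0.0342), and -0.38 ± 0.105 in 2cpab, which did not (limma adjusted p = 0.131). When 1 sample was left out, VTE1 kept its call in 3 of 9 fits, at log2 fold changes from -0.60 to -0.41. The call ended without wild type replicates 1, 2 or 3 (limma adjusted p = 0.102, 0.0561 and 0.0626), 2cpab replicate 2 (0.0588) or ntrc-2cpab replicates 1 or 3 (0.0819 and 0.0744).

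VTE4 (AT1G64970), gamma-tocopherol methyltransferase, stood at 21.4, 20.4 and 22.0 in 2cpab, at 16.6, 21.5 and 14.5 in ntrc-2cpab and at 25.0, 25.1 and 22.3 in the wild type. All mutant samples were again below the wild type, with ntrc-2cpab replicates 1 and 3 lowest and replicate 2 at the level of 2cpab. The log2 fold change of VTE4 was -0.17 in 2cpab and -0.46 in ntrc-2cpab (95% intervals -0.45 to 0.11 and -0.74 to -0.17), and neither passed (limma adjusted p = 0.512 and 0.0737). Without ntrc-2cpab replicate 2 VTE4 passed in ntrc-2cpab, at -0.60 (limma adjusted p = 0.0386). VTE4 overlaps with HEB1 on the opposite strand by 120 bases, and HPPD with AT1G06560 by 122. VTE4 also overlaps on the opposite strand with AT1G08733 by 496 bases, and that locus was not among those deposited. HEB1 averaged 2.27 in 2cpab and 2.26 in ntrc-2cpab, against 2.26 in the wild type. AT1G06560 averaged 4.01 in 2cpab and 4.48 in ntrc-2cpab, against 3.38 in the wild type, and did not pass (limma adjusted p = 0.306 and 0.0741).

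Counted together, 0 of 7 members passed in 2cpab, where 0.134% of all tested genes did, 0.0671% as lower and 0.0671% as higher (limma, 2 of the 7 and 2838 of all genes at an unadjusted p under 0.05). In ntrc-2cpab 2 of 7 passed, both lower, where 3.94% of all tested genes passed, 1.33% as lower and 2.61% as higher. At an unadjusted p under 0.05 there were 5 of the 7 and 3993 of all tested genes. Without overlap between replicates, 3 members were lower in 2cpab and 5 in ntrc-2cpab, where 11.6% and 13.9% of all tested genes were. All 7 members had a negative log2 fold change in 2cpab, with a median of -0.22, and 6 of 7 in ntrc-2cpab, with a median of -0.27. Over all tested genes 50.0% and 49.6% were negative, and the medians were 6.42e-05 and 0.0018. With the scaling of the deposited values undone, VTE2 turned to 0.016 in 2cpab and the other members kept their sign in both comparisons. Both comparisons share the wild-type samples. The leaf markers moved alongside: all 4 had negative log2 fold changes in both mutants, with medians of -0.30 and -0.31, and their summed abundance lay between 16175 and 18077 in 2cpab and between 16883 and 18004 in ntrc-2cpab, against 18445 to 23626 in the wild type. CA1, for carbonic anhydrase, was nearest to the threshold among them (limma adjusted p = 0.0594 in ntrc-2cpab). The part of leaf composition in the result was not tested, and fewer cells of a type and less RNA per cell cannot be told apart in these samples.

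**Figure D2:**
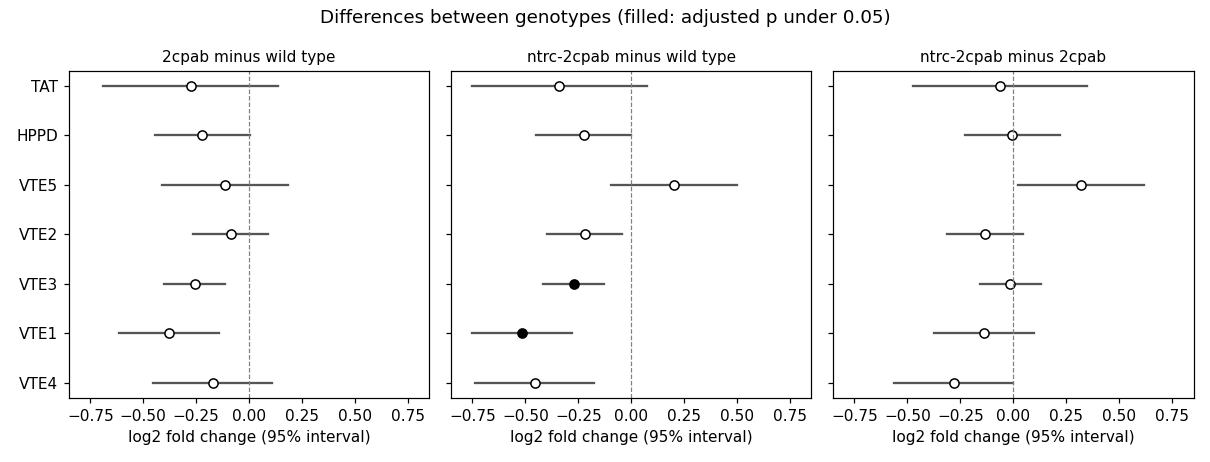
Log2 fold changes (x axis) of the 7 genes (y axis) for each mutant set against the wild type and for the triple mutant set against the double mutant. Bars are 95% intervals of the fit over all 9 samples, and filled points passed an adjusted p of 0.05. VTE1 and VTE3 in ntrc-2cpab, at -0.52 and -0.27, are the filled points.

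The comparison of ntrc-2cpab with 2cpab sets the triple mutant against the double mutant, and other differences between these lines enter it too. No member passed (0 of 7, limma adjusted p from 0.993 to 0.999), and 0.0061% of all tested genes did. At an unadjusted p under 0.05 there were 2 members, VTE5 and VTE4, and 708 of all tested genes. VTE5 stood higher in all ntrc-2cpab samples than in all 2cpab samples, as 5.37% of tested genes did, at a mean of 18.1 in ntrc-2cpab against 14.2 in 2cpab and a log2 fold change of 0.32 (95% interval 0.021 to 0.62). No member was lower without overlap, as 4.53% of tested genes were. VTE4 averaged 17.5 in ntrc-2cpab, against 21.3 in 2cpab, with overlapping samples and a log2 fold change of -0.28 (95% interval -0.56 to -0.0011). For VTE1 the difference was -0.14 (95% interval -0.37 to 0.097) and for VTE3 -0.015 (95% interval -0.16 to 0.13). The intervals of HPPD (-0.23 to 0.22), VTE2 (-0.31 to 0.045) and TAT (-0.48 to 0.35) also included 0. The order of the means was wild type, 2cpab, ntrc-2cpab from high to low for VTE1, VTE2, VTE3, VTE4, HPPD and TAT, and the difference between the mutants passed the test in none of these (limma adjusted p from 0.993 to 0.999). Its interval included 0 for each of them except VTE4.

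The spread between samples of a genotype varied with the gene. The root mean square SD of the 7 genes on the log2 scale was 0.16 in 2cpab and 0.21 in ntrc-2cpab, against 0.087 in the wild type. Over all tested genes it was 0.18 in 2cpab and 0.20 in ntrc-2cpab, against 0.23 in the wild type. On the log2 scale TAT weighed most in the mutants. Its log2 values ran from 3.15 to 3.70 in 2cpab and from 2.98 to 3.64 in ntrc-2cpab, against 3.59 to 3.64 in the wild type. The SD of abundance was lower in 2cpab than in the wild type for VTE2 (0.244 against 0.491) and VTE4 (0.759 against 1.56). It was also lower for VTE5 (1.32 against 1.84), and close for VTE3 (3.59 against 3.84). VTE2, VTE4 and VTE5 spread less in 2cpab on the log2 scale too. The low wild-type value for the set thus does not hold gene by gene. The median deviation of the 7 genes from their 9-sample means was -0.15, -0.12 and 0.047 in 2cpab replicates 1, 2 and 3, and -0.17, 0.010 and -0.16 in ntrc-2cpab. In the wild type it was 0.15, 0.20 and 0.18. Replicate 3 of 2cpab and replicate 2 of ntrc-2cpab stood nearest to the wild type.

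**Figure D3:**
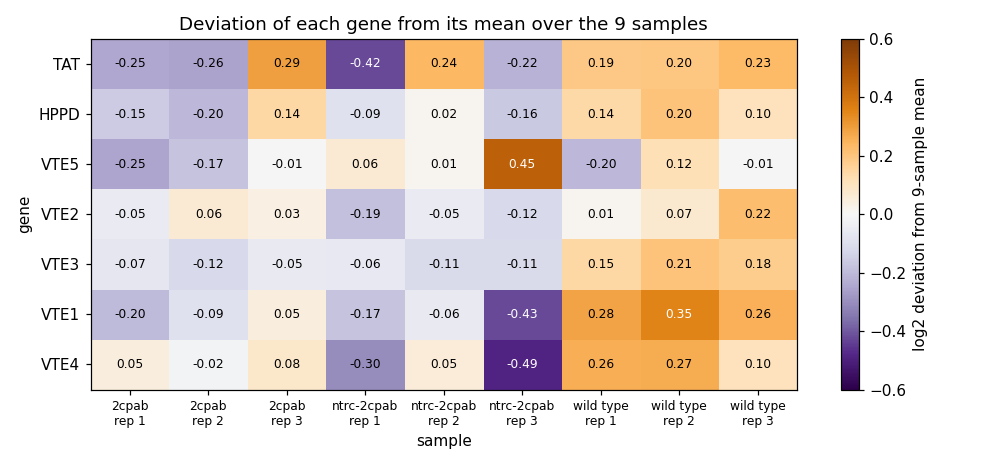
Log2 deviation of each of the 7 genes (rows) from its mean over the 9 samples (columns, grouped by genotype), with the value printed in each cell. In ntrc-2cpab replicate 3 VTE4 and VTE1 stood lowest, at -0.49 and -0.43, and VTE5 stood highest, at 0.45.

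Related pathways were described from 6 lists with 55 genes in all, of which 54 were tested. None of them passed in any comparison, where 0.134%, 3.94% and 0.0061% of all tested genes did in 2cpab, ntrc-2cpab and ntrc-2cpab against 2cpab. At an unadjusted p under 0.05 (limma), 11 stood in 2cpab and 11 in ntrc-2cpab, against 2838 and 3993 of 16384 tested genes. Between the mutants there was 1, against 708 of all tested genes. Shikimate and tyrosine synthesis, which supplies the head group, had 14 genes with a median log2 fold change of -0.0063 in 2cpab and -0.0062 in ntrc-2cpab. TYRA2, an arogenate dehydrogenase that makes tyrosine, averaged 5.66 ± 0.170 in 2cpab, against 7.14 ± 0.418 in the wild type (SD, n = 3 each), a log2 difference of -0.29 (limma adjusted p = 0.0952). DHS1, which starts the shikimate pathway, had the largest change of this list in ntrc-2cpab, at 0.35 (limma adjusted p = 0.229). Among the 5 other tyrosine aminotransferases and genes of tyrosine breakdown, TAT3, a jasmonate-responsive relative of TAT, stood at 19.9, 23.6 and 23.2 in 2cpab, at 13.2, 31.6 and 63.4 in ntrc-2cpab and at 5.50, 15.5 and 10.3 in the wild type. All 2cpab samples were above the wild type, while those of ntrc-2cpab overlapped with it, and neither difference passed (limma adjusted p = 0.282 and 0.102). The 5 jasmonate genes, TAT3 among them, had medians of -0.64 in 2cpab and -0.29 in ntrc-2cpab, and VSP1 ran from 1.47 to 38.5 within the wild type. They did not move together: VSP1, VSP2 and LOX2 had negative log2 fold changes in both mutants, and TAT3 and JAZ10 positive ones. JAZ10 stood at 0.42 in 2cpab and 0.60 in ntrc-2cpab (limma adjusted p = 0.445 and 0.192).

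The plastid isoprenoid pathway, which makes the precursors of the phytyl tail, had 10 genes with medians of -0.13 in 2cpab and -0.077 in ntrc-2cpab. DXS, its entry enzyme, stood at 120, 121 and 139 in 2cpab, at 127, 144 and 152 in ntrc-2cpab and at 152, 180 and 167 in the wild type, and neither difference passed (limma adjusted p = 0.118 and 0.198). The list of phytol supply had 12 tested genes with medians of -0.14 and -0.068. CHLG, chlorophyll synthase, averaged 65.6 ± 1.51 in ntrc-2cpab, against 77.7 ± 6.48 in the wild type (SD, n = 3 each, limma adjusted p = 0.112), and CLH1, a chlorophyllase, had a log2 fold change of -0.29 in 2cpab (limma adjusted p = 0.717). VTE6, the phytyl phosphate kinase that acts after VTE5, had log2 fold changes of 0.23 and 0.12 (limma adjusted p = 0.55 and 0.716). The 6 genes of the plastoquinone and phylloquinone branches had medians of -0.095 and -0.080. HST, which competes with VTE2 for homogentisate, stood at 1.38 in 2cpab and 1.33 in ntrc-2cpab, against 1.33 in the wild type. SPS2, a solanesyl diphosphate synthase, had a log2 fold change of -0.32 in ntrc-2cpab (limma adjusted p = 0.24), and ABC4, of phylloquinone synthesis, -0.21 in 2cpab (limma adjusted p = 0.283).

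The 7 genes of plastoglobules, the lipid bodies of the thylakoid in which VTE1 resides, had medians of -0.090 in 2cpab and -0.091 in ntrc-2cpab. ABC1K3, a plastoglobule kinase, stood at 28.5 ± 2.83 in 2cpab and 28.2 ± 2.59 in ntrc-2cpab, against 34.4 ± 2.01 in the wild type (SD, n = 3 each, limma adjusted p = 0.206 and 0.122). FBN1A, a structural fibrillin, went the other way, at 147 ± 19.9 in 2cpab and 159 ± 13.6 in ntrc-2cpab, against 127 ± 6.97 in the wild type (SD, n = 3 each, limma adjusted p = 0.39 and 0.119). In ntrc-2cpab against 2cpab the largest changes of the lists were those of DHS1 (0.31), TAT3 (0.42), GGPPS11 (0.23), CLH1 (0.42), SPS2 (-0.19) and FBN4 (0.13). None of these passed (limma adjusted p = 0.993 for each).

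**Figure D4:**
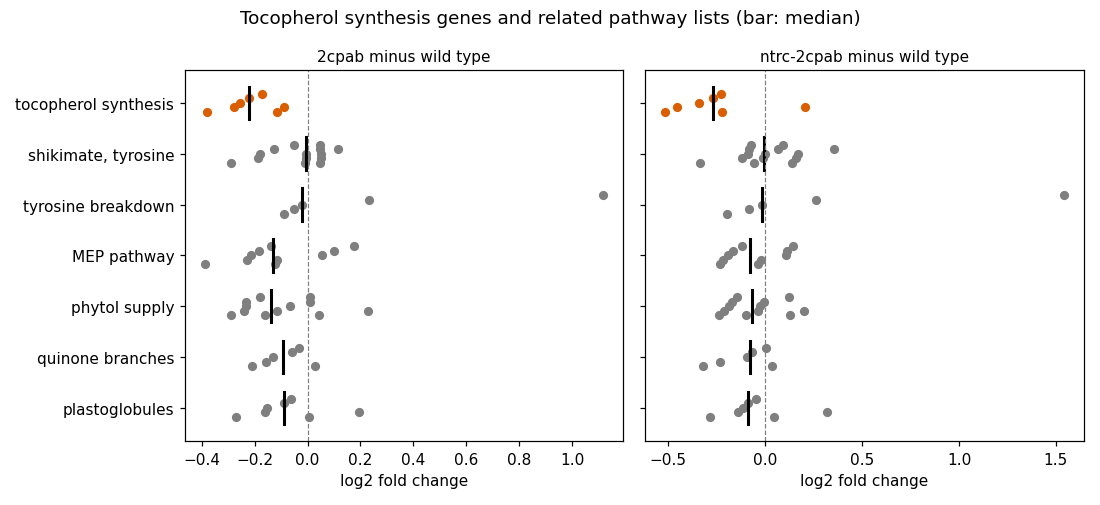
Log2 fold changes (x axes) of the 7 tocopherol synthesis genes (orange) and of the tested genes of 6 related lists (grey) in each mutant relative to the wild type. Black bars are list medians, -0.22 and -0.27 for tocopherol synthesis and between -0.14 and -0.0062 for the other lists, and the point far to the right is TAT3.

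The genes most like each member were sought among 9284 other genes whose abundance averaged 5 or more, by Pearson's r of the log2 values over the 9 samples, as a description in which differences between genotypes and sample-wide deviations both count. For VTE1 they were AT2G34460 (r = 0.98) and PDV2 (r = 0.98), a gene of plastid division. PDV2 averaged 12.8 in 2cpab and 11.9 in ntrc-2cpab, against 15.3 in the wild type. For VTE3 they were 2CPB (r = 0.98), one of the mutated genes, and EMB3136 (r = 0.98). For VTE4 they were AT2G30700 (r = 0.96) and AT3G52920 (r = 0.95), and for VTE2 FXG1 (r = 0.92), an alpha-fucosidase gene, and AT3G06035 (r = 0.91). For VTE5 they were BBD1 (r = 0.97), for a nuclease, and AT4G13200 (r = 0.96). BBD1 averaged 17.6 in 2cpab and 31.96 in ntrc-2cpab, against 19.9 in the wild type. HPPD was most like ATATH8 and AT5G50100 (r = 0.98 for both), and TAT was most like IAGLU (r = 0.99) and CYP706A5 (r = 0.97). Each r given is among the 2 highest of 9284 values over 9 samples. High values thus follow in part from this choice, and a relation between the genes was not tested.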

How the data were processed

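The single table deposited by the authors gives log2 abundance for every locus in every sample, with an offset of 1. The submitters' processing notes name FastQC, HISAT2, StringTie and, as build, TAIR10. Not given in the sources used here: their versions, their settings, the abundance unit, the use of strand. The 75th percentile was 2.75 in every sample, so samples had been scaled to each other. After division by 1 factor per sample, from 0.97 to 1.09, low values were examined as multiples of a small fixed unit. Between 97.9% and 100% of them were whole multiples within 0.1 of that unit. Each factor was chosen to make this share the largest, and these factors served to undo the scaling. They ran from 1.08 to 1.09 in the wild type, from 0.97 to 1.02 in 2cpab and from 1.01 to 1.05 in ntrc-2cpab. The scaling thus differed with genotype. With it undone, the median log2 fold change over all tested genes was 0.099 in 2cpab and 0.064 in ntrc-2cpab. Below that median lay 7 members in 2cpab and 6 in ntrc-2cpab. No counts were used. The bases upstream of HPPD are not reported here.

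limma 3.58.1 in R 4.3.3, with an intensity trend, was fitted to the deposited log2 values of the 16384 tested loci. All 9 samples entered 1 fit, which left 6 residual degrees of freedom. P-values were two-sided and Benjamini-Hochberg adjusted over all tested genes, with a threshold of 0.05. The offset makes the fold changes of low genes too small. The script was tested on simulated data with 100 genes changed at each size. Of log2 changes of 0.5, 37% passed in 2cpab, 46% in ntrc-2cpab and 47% between the mutants. Of changes of 1, 86%, 91% and 82% passed. A gene that did not pass is thus not shown to be unchanged.

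The members and the lists were chosen with earlier results of these data known. Named genes are the members, the most changed gene of each related pathway list in each comparison, and the 2 genes most like each member. VTE6, HST and the neighbours of members were added by role or position. Genes of the other lists (jasmonate, senescence, immune, mutated and marker genes) were not all chosen by that rule. Lists were matched by locus, and names came from the RefSeq table of TAIR10.1, which held 32835 of the loci. Alternatives changed the filter, the offset, the scaling, the weights, the trend, the block and the samples.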

Additional observations from a re-analysis of the deposited data

How the results depend on the processing

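Across 19 alternatives per member and comparison, VTE1, VTE3, VTE4, HPPD and TAT kept a negative log2 fold change against the wild type in both mutants, and VTE1 ranged from -0.60 to -0.41 in ntrc-2cpab. VTE1 and VTE3 lost their calls there in 9 and 14 of the 19. Members called in ntrc-2cpab numbered 2 in the fit reported, and 1 with no filter on low abundance, with no intensity trend, with values rescaled to an equal sum per sample or with the scaling undone (chosen after seeing the data). They numbered 0 with the replicate block or in a fit of only the 2 groups compared, and from 0 to 2 when 1 sample was left out. Sign turned for VTE2 in 2cpab with the scaling undone (0.016). In ntrc-2cpab against 2cpab it turned for HPPD and TAT with array weights (0.025 and 0.023), for HPPD without 2cpab replicate 3 or ntrc-2cpab replicate 3 (0.10 and 0.037, in a range from -0.071 to 0.10 without 1 sample) and for TAT without 2cpab replicate 3 or ntrc-2cpab replicate 1 (0.12 and 0.081, in a range from -0.25 to 0.12).

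Of all genes, 22 were called in 2cpab (11 higher and 11 lower), and 7 with no filter, 136 at an equal sum (121 higher and 15 lower), 164 with array weights, 350 with the scaling undone (327 higher and 23 lower), 9 with the replicate block, 6 with only the 2 groups compared and 4 to 116 without 1 sample. In ntrc-2cpab 645 were called, and 232 with no filter, 357 with the block, 50 with only the 2 groups compared and 49 to 761 without 1 sample. Between the mutants 1 was called, 5 with no filter, 2 with only the 2 groups compared and 1 to 2 without 1 sample. The cause was not tested. Deviations of same-numbered samples correlated at -0.16 to 0.21, and those of differently numbered samples at -0.34 to 0.25. Samples did not all correlate best with their own number. Deviations cancel within each group, so these correlations cannot decide whether replicate numbers pair the samples. The unknown depth limits statements on low genes such as HST.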

Other observations

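The ratio of VTE1 to VTE5 within a sample does not depend on any scaling between samples. The pair was chosen after VTE1 was seen to be lower and VTE5 higher in ntrc-2cpab, so the values are a description with no test. It stood at 0.737, 0.758 and 0.742 in 2cpab, at 0.597, 0.678 and 0.370 in ntrc-2cpab and at 1.02, 0.847 and 0.868 in the wild type.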
